A study of Rattus norvegicus with 39 samples.

Results

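The change in gene expression that α-naphthyl isothiocyanate (ANIT) produced in laser-captured bile duct of rat liver 6 h after dosing is described here from 9 of the 39 arrays of the series. Of these, 5 came from rats given ANIT and 4 from rats given the vehicle. The arrays were chosen from their labels by treatment, time and captured region, and all 15866 probe sets other than array controls were tested. Both groups were Sprague Dawley rats 8 weeks old. The treated rats had a single dose of ANIT at 50 mg/kg prepared in corn oil, and the controls had corn oil at 10 ml/kg. The labels number the arrays of a group as biological replicates from separate rats and give 5 rats for each treatment, so the fifth vehicle rat was not analysed here. Captured RNA was amplified before labelling, and the amount of tissue captured per array is not given in the sources used here. The series also holds bile duct at 2 h and hepatocytes at both times, which serve below only for comparison.

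ANIT is a toxicant that the liver conjugates with glutathione and secretes into bile, where the conjugate falls apart and exposes the cells lining the ducts. These cells, the cholangiocytes, form the walls of the intrahepatic bile ducts, carry keratins 7 and 19 and modify bile by moving water, bicarbonate and chloride. Injured epithelium in general turns on electrophile defence through the transcription factor NRF2, protein-folding genes through HSF1, amino acid and translation genes through ATF4, and growth genes through MYC, AP-1 and YAP.

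The captured tissue carried cholangiocyte markers on every array. The keratin gene Krt19 read 11.10, 10.79, 10.59 and 11.21 on the vehicle arrays and 10.73, 10.60, 10.85, 10.57 and 10.78 on the ANIT arrays, as log2 levels. These ranges overlapped, and Krt19 did not pass the test (log2 difference -0.22, adjusted p = 0.669). The mean level of 19 cholangiocyte markers ran from 7.53 to 8.39 with vehicle and from 8.50 to 8.64 with ANIT (exact two-sided permutation p = 0.00794, 0.0278 after Benjamini-Hochberg adjustment over 14 array measures). This mean includes Cldn4, Cldn7, Cdh1 and St14, which rose after ANIT (below), so it does not measure cholangiocyte content alone. The median log2 difference of the markers was 0.295, and -0.02 after quantile normalization was repeated over the 9 arrays. Hepatocyte markers, 25 in number, were also present and varied widely, with mean levels of 7.31, 4.71, 8.39 and 4.38 on the vehicle arrays and 3.97, 5.52, 4.75, 7.24 and 3.64 on the ANIT arrays (exact permutation p = 0.302). Vehicle replicates 1 and 3 and ANIT replicate 4 were the 3 arrays with the most hepatocyte signal. Lymphocyte markers were near the floor, at a mean log2 level of 3.09 with vehicle and 2.75 with ANIT, and the neutrophil, macrophage, fibroblast and endothelial lists lay between 4.59 and 5.63 in both groups.

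The 9 arrays also differed in spread. The standard deviation of log2 values over all probe sets was 1.86, 1.68, 1.83 and 1.88 on the vehicle arrays and 2.00, 1.95, 2.06, 2.05 and 2.00 on the ANIT arrays, so the groups did not overlap (exact permutation p = 0.00794, the smallest that 4 arrays against 5 allow). Vehicle replicate 2 had the lowest spread. Correlations between arrays were 0.834 to 0.893 within the vehicle group and 0.918 to 0.947 within the ANIT group. The 3′ GAPDH control was 10.1 ± 0.23 with vehicle and 10.6 ± 0.09 with ANIT (SD, n = 4 and 5). Spread and treatment therefore cannot be told apart within these 9 arrays alone, and most gene groups are given below with and without an allowance for spread. Because the tissue was measured in bulk, fewer cells of a type and less RNA per cell cannot be told apart either.

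**Figure D1:**
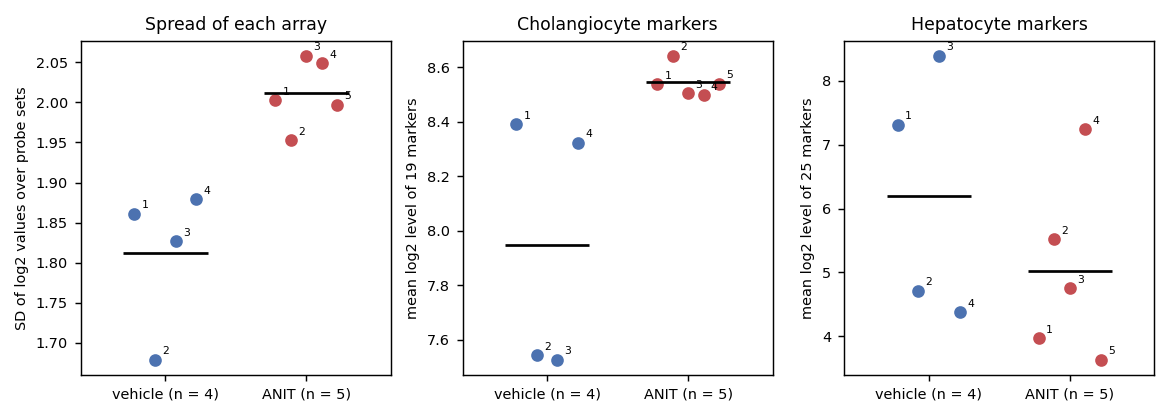
Spread of each array (SD of log2 values over probe sets), mean log2 level of 19 cholangiocyte markers and mean log2 level of 25 hepatocyte markers in bile duct at 6 h, 1 point per array with its replicate number and a line at the group mean. The 4 vehicle arrays lie below all 5 ANIT arrays in spread and in cholangiocyte marker level, whereas hepatocyte marker levels overlap. The cholangiocyte markers include Cldn4, Cldn7, Cdh1 and St14, which rose after ANIT.

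Of the 15866 probe sets, 820 were higher after ANIT (5.17%) and 213 were lower (1.34%) at an adjusted p of 0.05 in limma. Arrays of the groups did not overlap for 1322 probe sets with ANIT higher (8.33%) and for 463 with ANIT lower (2.92%), and 907 of the 1033 that passed were among them. Bright probe sets supplied most of the rises: the brightest quartile held 577 of the 820, and the dimmest held 4. The median log2 difference was 0.45 in the brightest quartile and -0.23 in the dimmest. Quantile normalization repeated over the 9 arrays brought these medians to 0.12 and -0.05, and left 609 calls, of which 402 were higher and 207 lower. Scaling every array to 1 mean and 1 SD left 688 calls, and weighting arrays by their quality left 900. A fit of all 4 bile duct groups (19 arrays, 2 and 6 h) with each array's spread as a covariate left 162, of which 62 were higher and 100 lower. The count also fell by over 1.5 times when vehicle replicate 3 was left out (678), or ANIT replicate 1 (552), 4 (624) or 5 (598). Leaving out the 3 arrays rich in hepatocyte signal left 263. That fit holds only vehicle replicates 2 and 4 as controls, of which replicate 2 had the lowest spread. Whether calls were lost in it through hepatocyte signal or through fewer arrays was not tested, here or for the genes and lists below.

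**Figure D2:**
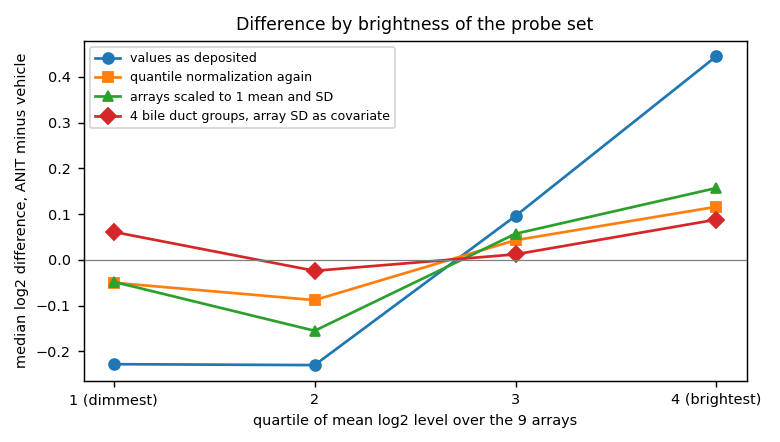
Median log2 difference (ANIT minus vehicle) of the probe sets in each quartile of mean log2 level over the 9 arrays, with the values as deposited and under 3 ways of taking array spread into account. The line for the deposited values climbs from -0.23 to 0.45, and the other 3 lines stay between -0.16 and 0.16.

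A probe set is called kept below if it passed in the same direction under all 4 of these allowances for spread: repeated quantile normalization, scaling, array weights, and the 4-group fit with spread as a covariate. There were 83 such probe sets (0.523%), 44 higher and 39 lower, and 70 of them also passed whichever array was left out. Array weights do not change the spread of an array's values, and with 881 of the 1033 passing they were the mildest of the 4. The strictest was the spread covariate, which 102 of the 1033 passed. The 2 h groups that enter that fit hold 2 ANIT arrays of low spread, replicates 2 and 4 at 1.76 and 1.88 against 1.99 to 2.18 on the other 8 arrays. Without these 2 arrays the covariate fit made 111 calls, and 28 of the 83 kept probe sets (11 higher, 17 lower) passed it. The other 3 allowances were passed by 480 of the 1033, 361 higher and 119 lower.

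Gene lists for 30 pathways were then read gene by gene, each gene by its brightest probe set. Probe sets of 1 gene did not always move together: among the genes named below as risen or fallen, a dimmer probe set of Canx, Eci1, Eif4g2, Ero1a, Ier5, Psmd11, Tgfb2, Tgfbr1 and Tk1 did not pass, and for others this is given beside the gene. Over all probe sets the median log2 difference was -0.05 and 7417 of 15866 were positive. Some lists were brighter than this background. The brightest quartile began at a log2 level of 5.48, and there the median difference was 0.45 and 577 of 3965 probe sets rose. Median levels were 6.75 for translation, 6.41 for ribosome biogenesis, 5.79 for heat shock, 6.88 for NRF2, 6.96 for endoplasmic reticulum and 7.40 for proteasome genes. They were 6.12 for junction, 5.91 for epithelial injury, 7.11 for integrin and basement membrane and 7.13 for cytoskeleton genes. By share of members, rises were most frequent in 4 lists: translation initiation factors and tRNA synthetases, ribosome biogenesis factors, heat shock chaperones, and NRF2 genes. Junction genes (8 of 19) and epithelial injury genes (11 of 27) came close to the NRF2 genes (11 of 25). Falls were few in every list, with at most 3 members.

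**Figure D3:**
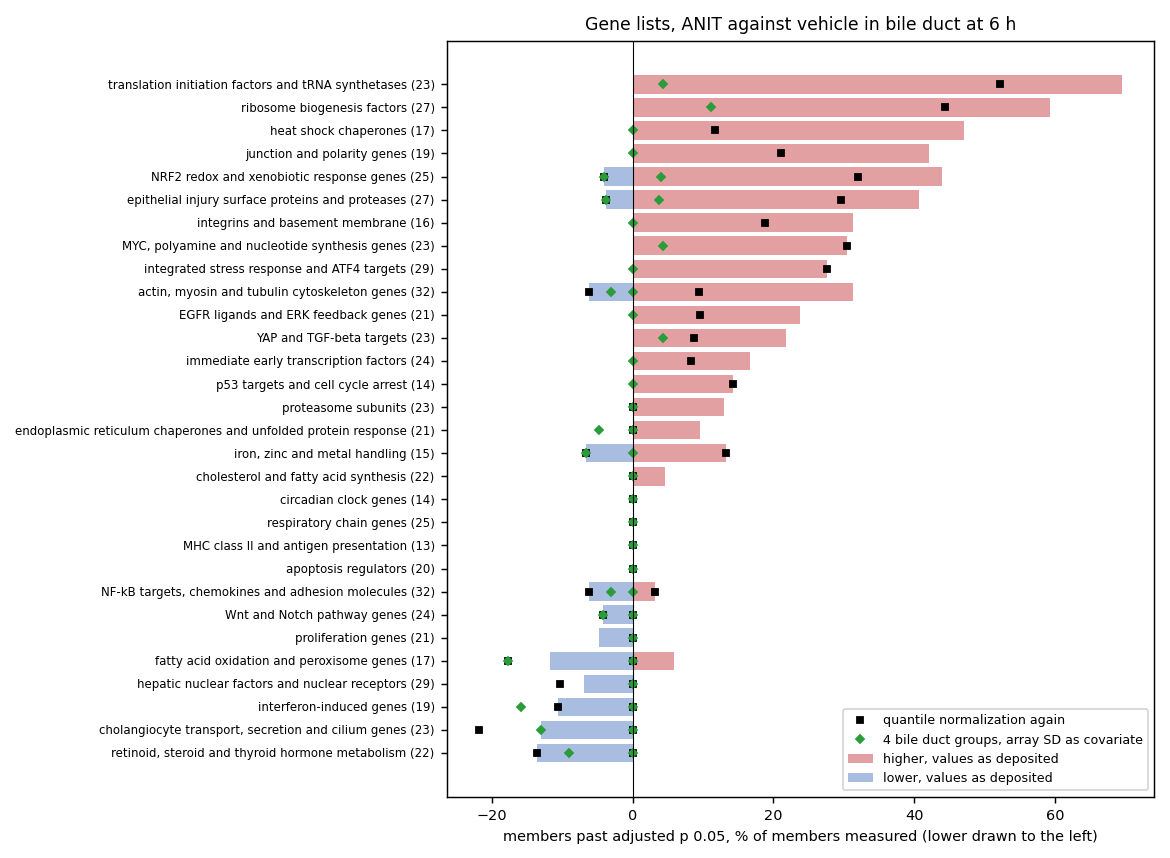
Share of each list's measured members (number in brackets) past an adjusted p of 0.05 for ANIT against vehicle in bile duct at 6 h, rises to the right and falls to the left. Bars are the values as deposited, squares repeated quantile normalization and diamonds the 4-group fit with array SD as covariate. Translation and ribosome biogenesis genes have the longest bars, with 16 of 23 and 16 of 27 members, and few members of any list keep a call with the covariate.

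Ribosome assembly genes rose together. Of 27 ribosome biogenesis factors measured, 16 rose and none fell, with a median log2 difference of 1.44, and all 27 differences were positive, from 0.24 for Nip7 to 2.90 for Ddx21. Nop58, a core protein of the small nucleolar particles that guide methylation of ribosomal RNA, read 6.64, 5.81, 5.84 and 5.75 with vehicle and 8.36, 8.50, 8.44, 8.48 and 8.53 with ANIT. The groups lay far apart, and the ANIT arrays were nearly equal (log2 difference 2.45 ± 0.28 SE, 5.47-fold, adjusted p = 0.000691). Ddx21, a nucleolar RNA helicase, read 6.69, 5.09, 5.57 and 6.52 with vehicle and 9.20, 8.71, 8.81, 8.79 and 8.83 with ANIT (2.90 ± 0.35, 7.47-fold, adjusted p = 0.000811). Vehicle arrays of Ddx21 scattered widely, yet none reached the lowest ANIT array. Nop14, a factor of the small-subunit processome, rose by 1.6 ± 0.36. The methyltransferase fibrillarin (Fbl, 2.01 ± 0.29), nucleolin (Ncl, 1.72 ± 0.27), Bysl (2.24 ± 0.30), Wdr43 (2.44 ± 0.38) and Nolc1 (1.74 ± 0.27) rose too. Gar1, from the particles that guide pseudouridylation, was outside the list and read 6.36, 3.22, 4.38 and 5.19 with vehicle and 7.83, 7.63, 7.95, 7.92 and 7.50 with ANIT (2.98 ± 0.47, adjusted p = 0.00346).

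These calls held under repeated quantile normalization for 12 of the 16, under scaling for 15 and under array weights for 16. With the spread covariate 3 of the 16 passed, namely Nop58 (2.00, adjusted p = 0.00808), Ddx21 (1.84, adjusted p = 0.0156) and Nop14, and the list's median was 0.94. Nop58 also passed without the low-spread 2 h arrays (2.16, adjusted p = 0.0295), and Ddx21 narrowly did not (1.95, adjusted p = 0.053). Nop14 lost its call without vehicle replicate 3 (adjusted p = 0.0526). At least 13 of the 16 passed whichever array was left out, and 10 passed without the 3 hepatocyte-rich arrays. A second probe set of Nolc1 rose as well (2.40), while another did not pass (-0.08).

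The promoters of ribosome biogenesis genes are shown for the E-box CACGTG, the hexamer to which MYC and its partner MAX bind. RefSeq promoter windows around the start of each gene (build GRCr8) were searched for CACGTG, which reads the same on both strands. It was found in 11 of 25 windows of the list and in 8 of the 14 windows of members that rose, against 6.65% of all 27457 windows. Among 18 windows of the MYC, polyamine and nucleotide synthesis genes it was found in 7, but in 1 of the 6 windows of members that rose. Capitals mark the hexamer in the 3 windows below, which end at the start site. They are Pes1 at chr14:83074256-83074345 (plus strand, hexamer at position -50 from the start), Gnl3 at chr16:6219783-6219862 (minus strand, -25) and Utp4 at chr19:51702161-51702240 (plus strand, -25).
Pes1: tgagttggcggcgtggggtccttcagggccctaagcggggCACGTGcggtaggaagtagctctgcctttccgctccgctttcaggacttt
Gnl3: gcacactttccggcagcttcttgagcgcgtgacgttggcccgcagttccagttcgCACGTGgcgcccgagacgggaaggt
Utp4: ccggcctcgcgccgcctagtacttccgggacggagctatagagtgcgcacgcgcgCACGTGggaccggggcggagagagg
Pes1 encodes pescadillo, a factor of the large subunit, and rose by 1.73 ± 0.39 (adjusted p = 0.0179). Gnl3 encodes nucleostemin and rose by 1.15 ± 0.28 (adjusted p = 0.0233). Utp4, of the small-subunit processome, rose by 1.30 ± 0.33 (adjusted p = 0.0281). None of the 3 passed with the spread covariate. Pes1 lost its call without vehicle replicate 3 (adjusted p = 0.0568), and Gnl3 and Utp4 lost theirs without 4 and 6 arrays in turn.

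Translation genes rose too. All 23 translation initiation factors and tRNA synthetases measured were higher with ANIT, 16 of them past the test and none lower, with a median of 1.44. The glycyl-tRNA synthetase Gars1 read 4.81, 5.25, 5.09 and 5.17 with vehicle and 7.0, 6.90, 6.90, 7.09 and 7.33 with ANIT (1.96 ± 0.26, 3.90-fold, adjusted p = 0.00158). Both groups were tight, with a wide gap between them. Eprs1, which charges glutamate and proline tRNAs, read 5.59, 4.90, 4.80 and 4.91 with vehicle and 7.48, 6.99, 6.73, 7.01 and 8.10 with ANIT (2.21 ± 0.33). The synthetases for methionine (Mars1, 2.09 ± 0.40), histidine (Hars1, 1.72 ± 0.34), tyrosine (Yars1, 1.68 ± 0.34) and threonine (Tars1, 1.49 ± 0.28) rose, as did the RNA helicase of cap-dependent initiation Eif4a1 (2.12 ± 0.39) and the Eif3 subunit Eif3b (2.01 ± 0.37). Eif4e, the cap-binding protein, had the smallest difference, 0.60, and did not pass. Of the 16 calls, 12 passed repeated quantile normalization and 1, Gars1, passed the spread covariate (1.65, adjusted p = 0.0156), which it missed without the low-spread 2 h arrays (1.64, adjusted p = 0.0661). Without the 3 hepatocyte-rich arrays 6 of the 16 passed.

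Genes of MYC and of polyamine synthesis rose as well. Of 23 MYC, polyamine and nucleotide synthesis genes, 7 rose and none fell (median 0.86), and all 7 passed repeated quantile normalization and every fit with 1 array left out. Myc itself read 6.37, 3.93, 4.87 and 5.74 with vehicle and 8.61, 8.93, 8.29, 8.42 and 8.57 with ANIT (3.34 ± 0.41). With the spread covariate its difference was 0.81 (adjusted p = 0.607). Odc1, ornithine decarboxylase and the entry enzyme of polyamine synthesis, read 5.21, 4.86, 5.91 and 5.57 with vehicle and 7.47, 8.08, 7.76, 7.98 and 7.95 with ANIT (2.46 ± 0.30, 5.50-fold, adjusted p = 0.000829). Odc1 kept its call with the covariate (1.69, adjusted p = 0.0156) and without the low-spread 2 h arrays (1.75, adjusted p = 0.0453). The next enzymes of the route, spermidine synthase (Srm, 1.85 ± 0.38) and spermine synthase (Sms, 1.45 ± 0.28), rose, and so did the pyrimidine synthesis enzymes Cad (1.49 ± 0.33) and Ctps1 (2.29 ± 0.37), although other probe sets of Cad (-0.32) and Ctps1 (-0.48) did not pass. Tfrc, the transferrin receptor, rose by 2.5 ± 0.45 from vehicle values of 4.13 to 6.87, but another probe set of the gene did not pass (0.30). The proliferation genes did not follow: of 21, none rose in limma (1 higher at an unadjusted p of 0.05, and 0 by the authors' deposited p-values after adjustment) and Tk1, a thymidine kinase, was the single fall (-1.34 ± 0.38), which 1 of the 9 left-out fits retained.

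Genes of the NRF2 defence against electrophiles were also among the lists with the larger shares of rises. Of 25 NRF2 redox and xenobiotic response genes, 11 rose and 1 fell (median 0.98). The promoter of Gstp1 is shown because this gene had the smallest p of the list and carries a match to the core of the antioxidant response element, TGACNNNGC, the site of NRF2 with small MAF proteins. Capitals mark the match at position -61 in 100 bases of the RefSeq window (GRCr8, chr1:210769716-210769815, minus strand).
Gstp1: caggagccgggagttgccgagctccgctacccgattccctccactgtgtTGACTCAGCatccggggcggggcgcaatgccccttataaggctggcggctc
The core, sought on both strands, was in 6 of 22 windows of the list, in 3 of the 9 windows of members that rose and in 12.2% of all windows. Gstp1, a glutathione S-transferase, read 7.28, 6.89, 6.36 and 7.19 with vehicle and 9.93, 9.67, 9.84, 9.95 and 9.76 with ANIT. Every ANIT array stood far above every vehicle array (2.90 ± 0.28, 7.46-fold, adjusted p = 0.000392). Gstp1 passed with the spread covariate (1.82, adjusted p = 0.0327) and again without the low-spread 2 h arrays (2.26, adjusted p = 0.0331). In hepatocytes of the same time the difference was -0.08, and the difference between the regions passed (2.98, adjusted p = 9.07e-05).

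The other 10 NRF2 genes that rose did not pass the covariate, and 13 of the 25 did not pass in limma. Nqo1, a quinone reductase, read 5.26, 3.38, 3.2 and 3.74 with vehicle and 5.19, 6.70, 7.44, 6.95 and 7.54 with ANIT (2.87 ± 0.50, adjusted p = 0.00582). Its groups overlapped, since ANIT replicate 1 lay just under vehicle replicate 1. The aldo-keto reductase Akr1b8 (2.82 ± 0.30), thioredoxin reductase Txnrd1 (2.10 ± 0.40), heme oxygenase Hmox1 (2.5 ± 0.53), the NRF2 partner Mafg (1.82 ± 0.33) and phosphogluconate dehydrogenase Pgd (1.77 ± 0.37) rose too. Other probe sets of Txnrd1 (1.11, adjusted p = 0.15) and Mafg (-0.35) did not pass. Gclm, a subunit of the enzyme that begins glutathione synthesis, did not pass (0.67, adjusted p = 0.22). Ephx1, microsomal epoxide hydrolase, went the other way and read 6.07, 5.63, 6.38 and 5.52 with vehicle and 4.34, 3.90, 4.31, 4.89 and 3.56 with ANIT (-1.70 ± 0.33, adjusted p = 0.00874). Its groups did not overlap, and the fall was larger with the spread covariate (-2.12, adjusted p = 0.0316). Without the low-spread 2 h arrays the covariate value did not pass (-1.93, adjusted p = 0.0681). The list held 9 of its 12 calls under repeated quantile normalization and 5 without the 3 hepatocyte-rich arrays.

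Of 29 genes under ATF4, the transcription factor of the integrated stress response, 8 rose and none fell (median 0.84). All 8 passed repeated quantile normalization and every left-out fit, and none passed the spread covariate. Slc7a1, an importer of arginine and lysine, read 8.29, 7.38, 7.68 and 7.68 with vehicle and 10.21, 10.21, 9.94, 10.39 and 10.51 with ANIT (2.5 ± 0.28, 5.63-fold, adjusted p = 0.000691). The covariate value was 1.74 (adjusted p = 0.0825). Of its other probe sets, 1 rose (2.01) and 1 did not pass (-1.0). Atf4 itself read 8.29, 7.26, 7.65 and 8.18 with vehicle and 9.85, 9.54, 9.28, 9.85 and 9.95 with ANIT (1.85 ± 0.30). The amino acid transporter subunit Slc3a2 (1.99 ± 0.37), the mitochondrial serine hydroxymethyltransferase Shmt2 (1.63 ± 0.31), the asparaginyl and alanyl-tRNA synthetases Nars1 (2.03 ± 0.45) and Aars1 (1.45 ± 0.29) and the stress cytokine Gdf15 (1.67 ± 0.35) rose. Asns, asparagine synthetase, did not pass (0.88, adjusted p = 0.17). The endoplasmic reticulum arm was quieter: 2 of 21 chaperone and unfolded protein response genes rose, the lectin Canx (1.27 ± 0.31) and the oxidase Ero1a (1.54 ± 0.40), and neither passed repeated quantile normalization. Canx lost its call without vehicle replicate 2 or ANIT replicate 2, 4 or 5, and Ero1a without vehicle replicate 2 or 4 or ANIT replicate 1, 3 or 4. The list's median of 0.17 turned to -0.60 with the spread covariate.

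Of 17 heat shock chaperones 8 rose and none fell, with a median of 1.20. Promoters of 3 of them are shown for their matches to the core of the heat shock element, GAANNTTC, the site of HSF1, which reads the same on both strands. The core was in 10 of 15 windows of the list and in 6 of the 8 windows of members that rose, against 8.34% of all windows. The match of Hspe1 and that of Hspd1, which did not pass as a rise, are the same bases read from opposite strands. Capitals mark it in Hsph1 (chr12:10427288-10427367, plus strand, position -31), Hspe1 (chr9:64084227-64084306, plus strand, -60) and Hspb1 (chr12:26432372-26432461, minus strand, -129 and -109), from RefSeq, GRCr8.
Hsph1: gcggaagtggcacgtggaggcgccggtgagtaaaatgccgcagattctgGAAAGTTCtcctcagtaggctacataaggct
Hspe1: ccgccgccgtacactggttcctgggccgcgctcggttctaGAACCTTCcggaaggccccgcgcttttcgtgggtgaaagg
Hspb1: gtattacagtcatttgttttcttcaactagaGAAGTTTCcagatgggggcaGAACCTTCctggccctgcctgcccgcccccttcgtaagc
Hsph1, a nucleotide exchange factor of HSP70, read 6.84, 5.53, 6.90 and 7.90 with vehicle and 8.36, 8.66, 8.49, 8.18 and 8.94 with ANIT (1.73 ± 0.40, adjusted p = 0.0189). The vehicle arrays ranged widely, and vehicle replicate 4 came close to the ANIT arrays. Hspe1, the mitochondrial co-chaperonin, read 7.24, 5.62, 7.56 and 7.50 with vehicle and 8.71, 8.50, 8.40, 8.50 and 8.83 with ANIT (1.61 ± 0.38, adjusted p = 0.021). Hspb1, the small heat shock protein, read 3.15, 4.58, 3.25 and 2.80 with vehicle and 5.44, 5.47, 4.11, 4.49 and 6.21 with ANIT, and its groups overlapped (1.70 ± 0.45, adjusted p = 0.0364). Hspb1 lost its call in 6 of the 9 left-out fits, Hspe1 without ANIT replicate 1 or 5, and Hsph1 without ANIT replicate 5 (adjusted p = 0.0505).

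For heat shock chaperones, repeated quantile normalization left 2 of the 8 calls, the covariate left none and took the median from 1.20 to 0.23, and the count was 5 without ANIT replicate 1 or 5 and 2 without the hepatocyte-rich arrays. Chordc1, a cochaperone of HSP90, read 5.10, 4.41, 4.50 and 4.4 with vehicle and 6.15, 6.41, 5.88, 6.08 and 6.64 with ANIT (1.63 ± 0.29). It passed 3 of the 4 allowances, but not the covariate (0.48, adjusted p = 0.741). Ahsa1, which speeds the HSP90 cycle, rose by 1.78 ± 0.35 and also passed 3. Proteasome subunits are the protein-degrading machinery of the cell. All 23 were positive with a median of 0.79, yet 3 rose (Psmd11, 1.49 ± 0.31, with Psmd4 and Psmc5), none of which passed repeated quantile normalization, and the covariate left a median of 0.13. The median level of this list, 7.40, lay in the brightest quartile of probe sets, where 577 of 3965 rose. The proteasome count was 6 without vehicle replicate 4 and 1 without ANIT replicate 1, 3, 4 or 5.

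Among growth factor signalling genes, some of the phosphatases that switch off ERK rose. Of 21 EGFR ligands and ERK feedback genes, 5 rose and none fell (median 0.43). Dusp5, a nuclear ERK phosphatase, read 3.59, 2.30, 2.77 and 2.86 with vehicle and 6.63, 4.99, 4.65, 5.34 and 6.16 with ANIT (2.67 ± 0.41, adjusted p = 0.00317). Dusp6, its cytoplasmic counterpart, read 9.37, 8.39, 9.0 and 9.43 with vehicle and 10.72, 10.56, 10.25, 10.50 and 10.91 with ANIT (1.54 ± 0.30, adjusted p = 0.00901). Neither overlapped, and neither passed the covariate (adjusted p = 0.0967 and 0.16). Dusp1, the receptor Epha2 and the EGFR inhibitor Errfi1 completed the 5. Of the other probe sets of Dusp6, 1 rose (1.48) and 1 did not pass (0.87, adjusted p = 0.0958), and that of Dusp1 did not pass (-0.77). Dusp4, another ERK phosphatase, did not pass (-0.09, adjusted p = 0.911). The ligands did not pass: Hbegf differed by 2.35 (adjusted p = 0.061) and Areg by 1.17 (adjusted p = 0.13). Repeated quantile normalization left 2 of the 5 calls, and the covariate none. The count was 3 without vehicle replicate 2 or ANIT replicate 2 and 2 without ANIT replicate 1 or 5. Of 24 immediate early transcription factors, 4 rose, namely Ier3 (2.16 ± 0.34), Klf6 (1.31 ± 0.29), Klf4 and Ier5. Jun did not pass (0.67, adjusted p = 0.17). Of these 4 calls, 2 passed repeated quantile normalization and none passed the covariate. The immediate early count was 2 without vehicle replicate 2 or 3 or ANIT replicate 1, 3, 4 or 5.

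Genes of epithelial injury and of YAP followed. Of 27 epithelial injury surface proteins and proteases 11 rose and 1 fell (median 0.54), and of 23 YAP and TGF-beta targets 5 rose and none fell (median 0.28). Promoters of Emp1 and Ccn2 are shown since both genes were kept. That of Emp1 matches TGANTCA, a loose pattern for the AP-1 site with any base at its centre (170 bases at chr4:169944000-169944169, plus strand). The matches are TGAGTCA at position -212 and TGATTCA at -88. That of Ccn2 holds the TEAD site GGAATG at -166, -101 and -92 (130 bases at chr1:22624675-22624804, minus strand). Matches are in capitals, from RefSeq, GRCr8. TEAD proteins are the DNA-binding partners of YAP.
Emp1: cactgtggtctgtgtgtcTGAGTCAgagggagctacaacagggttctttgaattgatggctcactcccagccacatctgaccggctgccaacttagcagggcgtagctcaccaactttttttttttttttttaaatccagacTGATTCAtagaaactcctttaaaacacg
Ccn2: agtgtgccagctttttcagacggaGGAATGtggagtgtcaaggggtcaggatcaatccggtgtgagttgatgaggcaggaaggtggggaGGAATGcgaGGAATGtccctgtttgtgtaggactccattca
Both motifs were sought on both strands. The loose AP-1 pattern was in 5 of 20 windows of the injury list, 2 of the 7 of members that rose and 7.33% of all windows. The TEAD site was in 6 of 20 windows of the YAP list, 2 of the 5 of members that rose and 13.9% of all. Among immediate early genes the AP-1 pattern was in 0 of 16 windows and the cyclic AMP response element TGACGTCA in 2 (1.91% of all). That element was in 1 of 28 windows of ATF4 targets and in 0 of the 7 of members that rose. The C/EBP-ATF element TGATGNAAT was in 3 of these 28 and 1 of the 7 (1.05% of all). Emp1, an epithelial membrane protein, read 3.73, 4.23, 2.88 and 4.06 with vehicle and 7.45, 7.49, 5.63, 6.71 and 7.90 with ANIT (3.31 ± 0.44, 9.93-fold, adjusted p = 0.00158). ANIT replicate 3 was the lowest of its group and still clearly above the highest vehicle array. Emp1 had the smallest adjusted p among the kept rises named here both with the covariate (3.49, adjusted p = 0.00588) and without the low-spread 2 h arrays (4.51, adjusted p = 0.00683). Another probe set of Emp1 did not pass (0.31).

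Ccn2, connective tissue growth factor, read 8.60, 7.16, 5.19 and 6.22 with vehicle and 10.61, 10.56, 8.87, 10.18 and 9.56 with ANIT (3.16 ± 0.56, adjusted p = 0.00643). Vehicle replicate 1 came close to ANIT replicate 3. With the covariate the difference was 2.85 (adjusted p = 0.0402), and 3.31 (adjusted p = 0.0754) without the low-spread 2 h arrays. Its relative Ccn1 (1.21 ± 0.34), the ligand Tgfb2 (1.24 ± 0.35) and the receptor Tgfbr1 (1.72 ± 0.43) passed in at most 2 of the 9 left-out fits. Of the 5 YAP calls, 2 passed repeated quantile normalization and 1, Ccn2, passed the covariate. The YAP count was 2 without vehicle replicate 3 or 4 or ANIT replicate 1, 3 or 4, and 3 without vehicle replicate 2 or ANIT replicate 2 or 5. Timp1, an inhibitor of metalloproteinases, read 4.83, 3.88, 2.99 and 5.55 with vehicle and 7.62, 7.56, 5.96, 6.33 and 8.50 with ANIT (2.88 ± 0.55, adjusted p = 0.00852). Without the 3 hepatocyte-rich arrays Timp1 did not pass (2.69, adjusted p = 0.0592). The annexin Anxa2 (2.15 ± 0.46), its ligand S100a10 (1.35 ± 0.33), clusterin (Clu, 1.95 ± 0.45) and the plasminogen activator Plat (2.88 ± 0.69) rose, and none of these passed the covariate. Clu lost its call without ANIT replicate 1 or 5, S100a10 without vehicle replicate 2 or 3 or ANIT replicate 1, 2 or 5, and Plat without vehicle replicate 2, 3 or 4 or ANIT replicate 1 or 5. The single fall of the injury list, Tgm2, the tissue transglutaminase, read 9.46, 8.93, 8.82 and 9.49 with vehicle and 7.26, 7.12, 8.25, 7.86 and 6.45 with ANIT (-1.79 ± 0.36, adjusted p = 0.0111). Tgm2 fell with the covariate too (-2.32, adjusted p = 0.00808), and a second probe set fell by 1.31. Of the calls of the injury list, 9 passed repeated quantile normalization and 2, Emp1 and Tgm2, passed the covariate. The injury count was 7 rises without ANIT replicate 1 or 5.

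Genes of cell contact and shape came next. Of 19 junction and polarity genes 8 rose and none fell (median 1.01). Claudin 4 (Cldn4), a tight junction protein, read 4.85, 4.65, 4.13 and 4.26 with vehicle and 8.03, 8.04, 5.33, 7.30 and 8.52 with ANIT (2.97 ± 0.51, 7.84-fold). The groups did not overlap, but ANIT replicate 3 was far below its fellows, and without the 3 hepatocyte-rich arrays Cldn4 did not pass (3.02, adjusted p = 0.0586). Claudin 7 (Cldn7, 2.87 ± 0.46), occludin (Ocln, 1.98 ± 0.37) and E-cadherin (Cdh1, 1.42 ± 0.29) also passed with every array left out in turn, whereas Ctnna1, Tjp1, F11r and Dsp did not. Another probe set of Ocln did not pass (0.09). Repeated quantile normalization left 4 of the 8, and the covariate none. The count was 5 without vehicle replicate 2 or ANIT replicate 2, and 4 without vehicle replicate 3 or ANIT replicate 1, 3, 4 or 5. Of 16 integrins and basement membrane genes 5 rose, among them the integrin subunits Itgb1 (1.61 ± 0.32) and Itga3 (2.14 ± 0.48) and the laminin chain Lamc1 (1.79 ± 0.32, another probe set 0.25 and not past the test). Of these 5 calls, 3 passed repeated quantile normalization and none passed the covariate. The integrin and basement membrane count was 3 without vehicle replicate 1 or 3 or any 1 ANIT array. Of 32 actin, myosin and tubulin cytoskeleton genes 10 rose, such as the actin cross-linker Actn1 (1.57 ± 0.32) and the focal adhesion protein Zyx (1.86 ± 0.40), and 2 fell, the formin Daam2 and the tubulin-binding Tppp. Another probe set of Actn1 did not pass (-0.19). Repeated quantile normalization left 3 of the rises and 2 falls, and the covariate left 1 call, the fall of Daam2. The number of rises was 6 without vehicle replicate 2 or 3 or ANIT replicate 1, 3 or 5.

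The falls were fewer, and 39 of the 213 were kept, against 44 of the 820 rises. Daam2, in the cytoskeleton and Wnt lists, read 6.05, 7.06, 7.27 and 6.91 with vehicle and 4.49, 4.51, 4.89, 3.62 and 3.41 with ANIT (-2.64 ± 0.37, adjusted p = 0.00211; -2.69 with the covariate, adjusted p = 0.034). Without the low-spread 2 h arrays its covariate value did not pass (-2.22, adjusted p = 0.145). Crym, a thyroid hormone-binding protein, read 5.40, 6.43, 6.85 and 5.93 with vehicle and 3.76, 3.47, 4.14, 4.15 and 2.78 with ANIT. All 5 ANIT arrays lay well under the lowest vehicle array (-2.49 ± 0.37, 5.63-fold lower, adjusted p = 0.0027), and the covariate value was -2.86 (adjusted p = 0.00588), which without the low-spread 2 h arrays was -2.24 (adjusted p = 0.0535). Of 23 cholangiocyte transport, secretion and cilium genes 3 fell and none rose (median -0.41): Crym, the glutamate transporter Slc1a3 (-1.36 ± 0.34) and the mucin Muc1 (-1.30 ± 0.34). Neither of the other probe sets of Slc1a3 passed (-0.18 and 0.1). Repeated quantile normalization raised the number of falls to 5. The count was 1 without vehicle replicate 4 or ANIT replicate 1 or 2, and 5 without ANIT replicate 3. Car2, a carbonic anhydrase, did not pass (-1.47, adjusted p = 0.07). Of 22 retinoid, steroid and thyroid hormone genes 3 fell (median -0.62): Crym, Dhrs3, which reduces retinal (-2.52 ± 0.40), and Serpina6, the corticosteroid-binding globulin made by hepatocytes (-2.31 ± 0.61). Serpina6 lost its call without vehicle replicate 3 or ANIT replicate 1, 2, 3 or 5.

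Some immune recognition genes fell. Vcam1, an adhesion molecule for leukocytes, read 7.91, 6.79, 7.17 and 6.65 with vehicle and 5.64, 4.41, 5.07, 5.08 and 4.27 with ANIT. The groups stood well apart (-2.24 ± 0.36, adjusted p = 0.00346; covariate -2.73, adjusted p = 0.0252). Without the 3 hepatocyte-rich arrays Vcam1 differed by -1.87 (adjusted p = 0.0588). Irgm2, an interferon-induced GTPase, read 8.05, 6.76, 7.48 and 7.61 with vehicle and 5.39, 5.79, 6.06, 6.32 and 4.12 with ANIT (-1.94 ± 0.42, adjusted p = 0.0149). Of 19 interferon-induced genes, Irgm2 and Oas1a fell and none rose (median -0.44). Of 32 NF-kB targets, chemokines and adhesion molecules, Vcam1 and the chemokine Ccl20 (-1.63 ± 0.38) fell. Oas1a passed in 2 of the 9 left-out fits, those without vehicle replicate 2 or ANIT replicate 3, and Ccl20 lost its call without vehicle replicate 2 or 3 or ANIT replicate 1. Nfkb1, the p105 precursor, was the single rise and read 4.42, 4.57, 5.03 and 5.48 with vehicle and 6.84, 6.95, 6.92, 6.54 and 6.6 with ANIT (1.90 ± 0.29). The number of rises was 3 without vehicle replicate 3 or ANIT replicate 2. Cxcl2, a neutrophil chemokine, did not pass (1.52, adjusted p = 0.067). Of 13 MHC class II and antigen presentation genes none passed in limma (0 at an unadjusted p of 0.05, and 1 lower by the authors' deposited p-values after adjustment). Outside that list, the MHC class I gene RT1-S3 fell and was kept (-1.60, adjusted p = 0.0126, with another probe set at -1.22, adjusted p = 0.0402). The latter probe set passed 1 of the 9 left-out fits, and neither passed the covariate fit without the low-spread 2 h arrays. Of 13 T, B and NK markers, 12 macrophage markers and 6 neutrophil markers none passed in limma (2, 2 and 0 lower at an unadjusted p of 0.05; 0, 1 and 0 lower by the authors' deposited p-values after adjustment).

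The list of fatty acid oxidation genes, which hepatocytes also express, came with 2 falls. Of 17 fatty acid oxidation and peroxisome genes, Ech1 and Eci1 fell and Acadl rose (median -0.37; -0.84 with the covariate). Ech1, an enoyl-CoA isomerase, read 6.84, 5.81, 7.02 and 6.43 with vehicle and 4.59, 4.00, 5.77, 5.34 and 3.76 with ANIT (-1.83 ± 0.42, adjusted p = 0.019; covariate -2.65, adjusted p = 0.00737). ANIT replicate 3 came close to the lowest vehicle array, and without vehicle replicate 3 the call was lost (adjusted p = 0.0586). Eci1 kept its call only without vehicle replicate 2 or ANIT replicate 3, and Acadl only without vehicle replicate 1 or 4, among the 9 left-out fits. None of the 3 calls passed without the hepatocyte-rich arrays. Pecr, a peroxisomal reductase, read 7.57, 7.73, 8.21 and 8.93 with vehicle and 6.12, 5.25, 7.18, 6.52 and 4.71 with ANIT (-2.15 ± 0.46), and -2.52 (adjusted p = 0.0629) without those arrays. Hadh, a fatty acid oxidation gene outside the list, fell without overlap (-2.11 ± 0.52, adjusted p = 0.0265; covariate -2.85, adjusted p = 0.0156). Hadh passed 6 of the 9 left-out fits, and missed with array weights (adjusted p = 0.0567) and without the hepatocyte-rich arrays (-2.42, adjusted p = 0.0837). Another probe set of Hadh did not pass (0.28, adjusted p = 0.747). The 25 hepatocyte markers had a median of -1.32, 23 of them negative, and none passed in limma (1 lower at an unadjusted p of 0.05, and 0 by the authors' deposited p-values after adjustment). Albumin averaged 11.8 with vehicle and 10.6 with ANIT. A fit of the 4 bile duct groups made 996 of the 1033 calls again, with 502 probe sets lower in all. With each array's mean hepatocyte marker level added as a covariate it made 930 of them again, with 463 lower, and all 37 genes named by size, Pecr among them, passed. In that covariate fit the fatty acid oxidation list had 3 falls and no rise. Of 29 hepatic nuclear factors and nuclear receptors, the bile acid receptor Nr1h4 (FXR, -1.79 ± 0.41) and Prox1 (-1.24 ± 0.29) fell. Nr1h4 lost its call without vehicle replicate 2 or ANIT replicate 1, and Prox1 without ANIT replicate 1.

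The remaining lists moved little. Of 14 p53 targets 2 rose, the cell cycle inhibitor Cdkn1a and Ccng1 (1.92 ± 0.40). Cdkn1a read 4.59, 4.58, 3.43 and 3.14 with vehicle and 7.25, 6.88, 5.46, 6.48 and 7.68 with ANIT (2.81 ± 0.45, 7.04-fold), passed every left-out fit and missed with the covariate (2.29, adjusted p = 0.138). Another probe set of Cdkn1a did not pass (-0.26). Mdm2 did not pass (0.43, adjusted p = 0.54). None of 20 apoptosis regulators passed in limma (5 higher and 1 lower at an unadjusted p of 0.05, and 0 by the authors' deposited p-values after adjustment), although 3 rose without vehicle replicate 1. None of 25 respiratory chain genes passed in limma (4 higher at an unadjusted p of 0.05, and 1 lower by the authors' deposited p-values after adjustment), and of 14 clock genes none passed in limma (1 higher and 3 lower at an unadjusted p of 0.05, and 0 by the authors' deposited p-values after adjustment). Fasn was the single rise among 22 cholesterol and fatty acid synthesis genes (1.69 ± 0.46), a call that held only in the fit without vehicle replicate 3 among the left-out fits. A second, dimmer probe set of Fasn rose by 1.61 ± 0.30 (adjusted p = 0.00746) without overlap of the groups, passed all 9 left-out fits and missed with the spread covariate (adjusted p = 0.374). Of 15 metal handling genes Tfrc and Hmox1 rose and the copper chaperone Atox1 fell (-1.41 ± 0.32, kept, but not past the covariate fit without the low-spread 2 h arrays, adjusted p = 0.0789). Of 24 Wnt and Notch genes Daam2 alone passed. Among cholangiocyte markers, the protease St14 rose from 7.37, 6.07, 6.74 and 7.66 to 9.83, 9.71, 9.12, 9.83 and 9.94 (2.73 ± 0.35), beside Cldn4, Cldn7 and Cdh1, while Muc1 fell and the list's median changed from 0.295 to -0.02 under repeated quantile normalization. None of 22 fibroblast markers passed in limma (2 higher at an unadjusted p of 0.05, and 0 by the authors' deposited p-values after adjustment), and of 11 endothelial markers Eng rose (1.43 ± 0.38), which was lost without vehicle replicate 1, 2 or 4 or ANIT replicate 1 or 2.

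Across the whole array, the kept genes with the largest changes belonged to these lists or stood outside them. Among the rises were Ipo4, a nuclear importer, which read 4.68, 2.14, 4.87 and 4.01 with vehicle and 6.72, 6.08, 6.97, 6.97 and 6.97 with ANIT (2.82 ± 0.47), and podoplanin (Pdpn), a mucin-like surface protein, which read 4.78, 4.09, 3.61 and 5.16 with vehicle and 6.83, 6.90, 7.79, 7.19 and 6.89 with ANIT (2.71 ± 0.35). The vesicle protein Sytl2 (2.68 ± 0.39), the phosphatase inhibitor Ppp1r14b (2.58 ± 0.30) and the actin-linked Pdlim7 (2.47 ± 0.44) rose in the same way, without overlap of the groups. The largest rise without overlap, that of Tnfrsf12a (3.99 ± 0.425, 15.9-fold, adjusted p = 0.000392), was not kept (covariate 2.42, adjusted p = 0.0519). Pvr (3.33 ± 0.53), Adamts1 (3.19 ± 0.34) and Stom (3.01 ± 0.50) also missed only the covariate (adjusted p = 0.336, 0.0954 and 0.0961). Among the falls, Ckmt1, mitochondrial creatine kinase, read 7.28, 5.65, 6.56 and 6.19 with vehicle and 4.20, 3.09, 4.54, 3.59 and 4.11 with ANIT (-2.51 ± 0.38), and its covariate value was -3.31 (adjusted p = 0.0017). The phosphatase Ptpn18 read 8.13, 7.98, 8.17 and 8.87 with vehicle and 6.05, 6.06, 6.33, 5.88 and 5.41 with ANIT (-2.34 ± 0.30). The water channel Aqp5 read 10.06, 10.03, 9.75 and 10.31 with vehicle and 7.72, 7.33, 9.50, 7.82 and 6.65 with ANIT (-2.23 ± 0.45). For Aqp5, ANIT replicate 3 nearly reached the vehicle arrays. Without the 3 hepatocyte-rich arrays Ckmt1 (-1.94, adjusted p = 0.0564), Aqp5 (-2.37, adjusted p = 0.0777) and Pdlim7 (2.28, adjusted p = 0.0686) did not pass. Other probe sets of Pdlim7 (-0.56) and Ptpn18 (-1.25, adjusted p = 0.0562) did not pass either. Of the kept genes named by size, Emp1, Gstp1, Pdlim7, Odc1, Ptpn18, Vcam1, Ckmt1, Ifi27l2b and LOC100910558 also passed the covariate fit without the low-spread 2 h arrays.

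**Figure D4:**
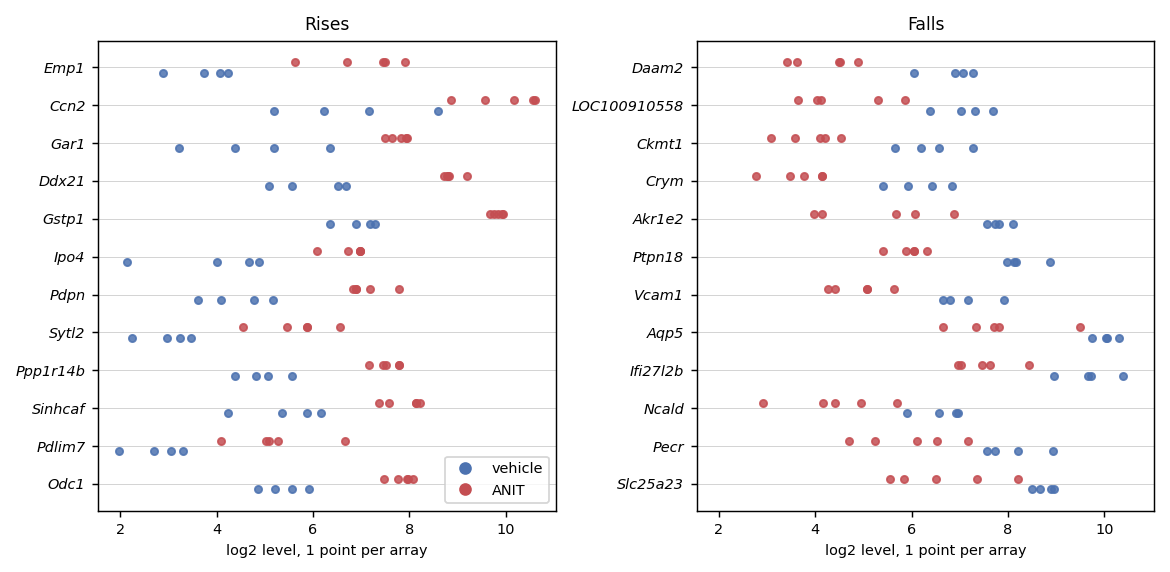
Log2 level on each array (1 point per array, vehicle n = 4, ANIT n = 5) of the 12 largest rises and 12 largest falls among genes that passed under all 4 allowances for spread and with every array left out in turn. The ANIT and vehicle points of each gene do not overlap, and Ncald and Aqp5 come closest to doing so. Ncald has an ANIT array at 5.69 against a vehicle array at 5.9, and Aqp5 has an ANIT array at 9.50 against a vehicle array at 9.75.

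Whether the change at 6 h differed from that at 2 h in bile duct was asked of the 19 arrays of both times. In 384 probe sets (2.42%) the ANIT effect was higher at 6 h and in 182 (1.15%) lower. Without the 2 low-spread ANIT arrays of 2 h, 31 probe sets passed, 22 higher and 9 lower, all among the 566. That fit also has fewer arrays, and no other pair of arrays was left out, so the cause of the drop was not tested. The count also varied with single 6 h arrays, from 224 without vehicle replicate 2, 304 without vehicle replicate 3 and 240 to 272 without ANIT replicate 1, 3, 4 or 5 to 1074 without vehicle replicate 4. Repeated quantile normalization left 65 calls, 40 higher and 25 lower. With each array's spread as a covariate 0 passed as higher and 2 as lower. None of the genes given below with a higher effect at 6 h therefore passed that covariate fit. Of the 51 genes named or listed here that passed, 14 also passed without the 2 low-spread arrays. The values below are with all arrays and then without the 2. Emp1 had an effect of 0.15 at 2 h against 3.31 at 6 h (difference 3.16, adjusted p = 0.0104; 3.00, adjusted p = 0.0482). Odc1 had 0.15 against 2.46 (2.31, adjusted p = 0.0142; 1.95, adjusted p = 0.0482). Pdpn had -0.86 against 2.71 (3.57, adjusted p = 0.00588; 3.24, adjusted p = 0.0355), St14 had -0.18 against 2.73 (2.91, adjusted p = 0.0224; 2.47, adjusted p = 0.0353), and Sytl2 had -0.26 against 2.68 (2.93, adjusted p = 0.00588; 2.99, adjusted p = 0.0253). The exosome helicase Mtrex (2.38; 2.18) and the tubulin Tubb5 (2.81; 2.54) passed both ways, but Tubb5 did not pass at 6 h itself (0.96, adjusted p = 0.108). Hspa1a, the inducible HSP70, went from 3.31 at 2 h to -0.37 at 6 h, a difference of -3.68 (adjusted p = 0.0368; -4.47, adjusted p = 0.0249). Bfsp1 (-2.42; -2.17) and Gtf2a1 (-2.16; -2.06) were lower at 6 h and higher, short of the test, at 2 h. Another probe set of Gtf2a1 did not pass at 6 h (-0.10) or in the time difference (0.89, adjusted p = 0.266).

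By list, the time difference passed for 4 of 27 ribosome biogenesis factors and 4 of 23 translation genes with all arrays, namely Nop58, Ddx21, Fbl and Pes1, and Eprs1, Hars1, Eif4g2 and Kars1. None of these 8 passed without the low-spread 2 h arrays or with each array's spread as a covariate. Median effects at 2 h were 0.54 for ribosome biogenesis and 0.19 for translation, 0.90 for NRF2 genes, 0.88 for heat shock chaperones, -0.10 for junction genes and -0.42 for proteasome subunits. For Srxn1, an NRF2 target that reduces sulfinylated peroxiredoxins, the effects were 3.34 at 2 h and 3.62 at 6 h, and the difference did not pass (0.29, adjusted p = 0.846).

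In hepatocytes captured at the same time none of the 15866 probe sets passed in limma (1285 at an unadjusted p of 0.05). The ANIT effect was higher in bile duct than in hepatocytes for 826 probe sets (5.21%) and lower for 292 (1.84%). Leaving out vehicle replicate 4 raised the count from 1118 to 1782. With each array's spread as a covariate it was 272. Of the ribosome biogenesis factors 14 of 27 were higher in bile duct, of the translation genes 16 of 23, of the heat shock chaperones 9 of 17, of the NRF2 genes 9 of 25 (and 1, Ephx1, lower) and of the ATF4 targets 8 of 29. Median hepatocyte effects of these lists were 0.34, 0.21, 0.11, 0.16 and 0.11. For Nop58 the effects were 0.45 in hepatocytes and 2.45 in bile duct (difference 2.00, adjusted p = 0.000226), and for Gars1 0.06 and 1.96 (1.91, adjusted p = 0.00021). Nqo1 had 1.28 in hepatocytes, did not pass there, and its regional difference did not pass either (1.59, adjusted p = 0.243). Cdkn1a likewise had 1.09 in hepatocytes and a difference that did not pass (1.72, adjusted p = 0.152). On the falling side Vcam1 (-2.71, adjusted p = 0.000706), Daam2 (-2.90, adjusted p = 0.000226), Crym (-2.33, adjusted p = 0.000873) and Ptpn18 (-2.21, adjusted p = 0.000467) differed between regions. The comparisons of regions and of times share the 9 arrays of bile duct at 6 h.

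**Figure D5:**
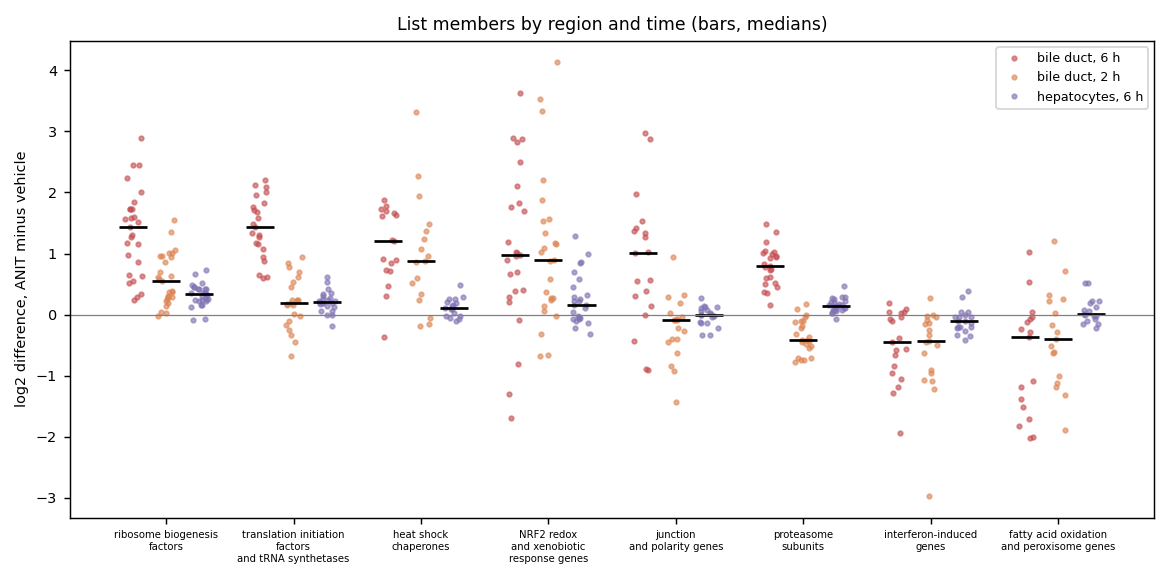
Log2 difference (ANIT minus vehicle) of each measured member of 8 lists in bile duct at 6 h, bile duct at 2 h and hepatocytes at 6 h, 1 point per gene with a line at the median. Ribosome biogenesis and translation genes have medians of 1.44 in bile duct at 6 h against 0.34 and 0.21 in hepatocytes, and proteasome subunits go from -0.42 at 2 h to 0.79 at 6 h.

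The authors' deposited table for this comparison gives ratios and p-values of its own. Across probe sets its log2 changes correlated with those from the array values at 0.792, a description over probe sets that share the same arrays. Of the 820 rises, 663 had a p under 0.05 and the same direction in the authors' deposited table. After Benjamini-Hochberg adjustment of the authors' deposited p-values 618 probe sets passed, 466 higher and 152 lower.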

How the data were processed

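The values are log2 probe set intensities from the series matrix, which the authors made with RMA per the submitters' processing notes and deposited. Whether RMA was run over all 39 arrays at once is not given in the sources used here. The authors' deposited table for bile duct at 6 h, made with Rosetta Resolver per the labels, holds log10 ratios and a p-value per probe set, with no adjustment stated. Arrays carry no counts, so their number limits the precision.

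Of 15923 probe sets 57 controls were left out. A supplied table gave 12783 of the other 15866 exactly 1 gene symbol, 312 several and 2771 none. ANIT (5 arrays) was compared with vehicle (4) in R 4.3.3 with limma 3.58.1 (lmFit, eBayes, two-sided, Benjamini-Hochberg over all 15866, threshold 0.05). Differences between times and regions were interaction contrasts over 19 arrays each. Errors are standard errors for log2 differences and SD for levels. The fits were run on simulated arrays into which changes of known size had been put. These arrays held no difference in spread between the groups, so the check does not bear on spread. Array measures were compared by exact permutation.

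The members of the comparison and the 37 gene lists (7 of them cell type markers) were chosen with earlier results of these data known. Genes were named as the 15 largest rises and falls without overlap, the 12 largest kept rises and falls, up to 8 members per list with the smallest p and 6 per direction for each interaction. Nop14, Pes1, Gnl3, Utp4, Nip7, Eif4e, Hspa1a and other named members beyond these limits, and members given as not passing, were chosen after their values were seen. Promoters came from RefSeq (GRCr8). The fit without 3 hepatocyte-rich arrays and the fits without 2 low-spread 2 h arrays were chosen after seeing the data.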

Additional observations from a re-analysis of the deposited data

Results flagged for a closer look

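Among the 37 genes named by the size of their change, 74 groups of 4 or 5 arrays were examined for an array far from its fellows, and chance alone marks about 1 in 20 such groups. Stood apart were vehicle replicate 3 for Stom (2.78, nearest 4.45), ANIT replicate 1 for Ddx21 (9.20, nearest 8.83) and ANIT replicate 2 for Ipo4 (6.08, nearest 6.72).

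The effect of ANIT in bile duct at 6 h differed from that at 2 h by the interaction test for 11 of these genes, all higher at 6 h. The log2 differences were 3.16 for Emp1, 3.01 for Map2, 2.21 for Ddx21, 3.13 for Timp1, 2.26 for Ipo4, 3.57 for Pdpn, 2.93 for Sytl2, 1.82 for Ppp1r14b, 2.16 for Sinhcaf, 2.35 for Pdlim7 and 2.31 for Odc1. Other probe sets of Emp1 (-0.46), Map2 (-0.31), Pdlim7 (-0.85) and Ppp1r14b (1.63, adjusted p = 0.0649) did not pass this interaction test. Without the 2 low-spread ANIT arrays of 2 h, Emp1, Pdpn, Sytl2 and Odc1 passed. With each array's spread as a covariate none of the 11 passed, since 0 probe sets were higher at 6 h in that fit.

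The effect in bile duct differed from that in hepatocytes at 6 h for all 37 genes. Higher in bile duct were Tnfrsf12a by 3.82, Emp1 by 3.17, Adamts1 by 3.10, Stom by 3.03, Gstp1 by 2.98, Pvr by 2.87, Cldn4 by 2.85, Map2 by 2.84, Sinhcaf by 2.82, Cldn7 by 2.79, Pdlim7 by 2.79, Ccn2 by 2.77 and Srxn1 by 2.77. Also higher were Myc by 2.70, Pdpn by 2.68, Ipo4 by 2.66, Timp1 by 2.60, Gar1 by 2.5, Ddx21 by 2.41, Sytl2 by 2.39, Ppp1r14b by 2.37 and Odc1 by 2.31, each on the log2 scale. Lower in bile duct were Daam2 (-2.90), Vcam1 (-2.71), Akr1e2 (-2.61), Tppp (-2.47), Dhrs3 (-2.46), Ncald (-2.42), Ckmt1 (-2.34), Crym (-2.33), Pecr (-2.27), LOC100910558 (-2.22), Ptpn18 (-2.21), Hadh (-2.13), Ifi27l2b (-2.10), Aqp5 (-2.04) and Slc25a23 (-1.74). Other probe sets of Emp1 (0.06), Map2 (0.50), Pdlim7 (-0.675), Ptpn18 (-1.18, adjusted p = 0.0748) and Hadh (-0.08) did not pass this test of regions. These genes were named for large changes in bile duct, so a difference from hepatocytes, where no probe set passed, follows in part from how they were named.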

How the results depend on the processing

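The 1033 calls of the main comparison became 609 under repeated quantile normalization, 688 under scaling, 162 with spread as a covariate in the 4-group fit (111 without the 2 low-spread 2 h arrays) and 0 with it over the 9 arrays alone in limma, where 1934 passed an unadjusted p of 0.05. They became 29 with a variance of its own for each group, 618 by the authors' deposited p-values after adjustment, 247 at an adjusted p of 0.01 and 263 without the 3 hepatocyte-rich arrays. They became 1697 when the 4 bile duct groups were fitted together, 4564 in a fit of all 39 arrays and 2247 with the 2 h vehicle arrays as controls. Each array left out in turn gave 552 to 1137. Median subtraction, removal of dim probe sets, trend and robust settings, 1 probe set per gene, a 1.5-fold minimum and array weights stayed within 1.5 times. The 566 calls of the time difference became 65 under repeated quantile normalization, 2 with spread as a covariate, 31 without the 2 low-spread 2 h arrays and 224 to 1074 with an array left out. The 1118 of the region difference became 272 with spread as a covariate and 974 to 1782 with an array left out. A replicate block gave 400, 383 and 833 calls. Same-numbered arrays deviated together at correlations of -0.07, 0.08, -0.04 and -0.14, and 1 of 4 vehicle arrays correlated best with the ANIT array of its number, so the numbers were not taken as pairs. Of the 37 genes named by size, 12 lost their call with spread as a covariate and 12 without the hepatocyte-rich arrays. None of them reversed direction under the alternatives run for them. The causes of these shifts were not tested.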
